A study of Mus musculus with 5 samples.

Results

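Natural killer (NK) cells of the bone marrow were picked out of 3 whole BM single-cell libraries by their receptor transcripts. UMIs (unique molecular identifiers) mark 1 captured transcript molecule each. Kept cells had 200 or more genes detected and under 20% mitochondrial UMIs. Of the kept cells, the members had at least 2 UMIs summed over Ncr1, Klrb1c and Klre1, at most 1 UMI summed over Cd3d, Cd3e and Cd3g, and none of Cd79a. This gave 195 members of 21520 kept cells, or of 28063 barcodes counted over all 5 libraries of the study. All mice were BALB/c, 4 to 8 weeks old, and each whole BM library was a single pool of equal cell numbers from 3 mice, so every condition had 1 library and none of the values below has a replicate check. The naive library came from untreated mice, and the D2 CTX and D7 CTX libraries came from mice given 150 mg/kg cyclophosphamide (CTX, an alkylating drug that depletes blood-forming cells) intraperitoneally 2 or 7 days before. Dead cells had been removed from the suspensions. The other 2 libraries held sorted CD11b+Ly6Chi monocytes and were used only to count cells that met the rule. Intervals are exact 95% intervals that cover counting error only, not differences between mice.

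NK cells are innate lymphocytes that arise in the bone marrow and kill infected or transformed cells without a rearranged antigen receptor. They read their targets through activating and inhibitory receptors of the killer lectin-like and natural cytotoxicity families, which signal through small adaptor proteins. On contact they release perforin and granzymes from granules and secrete interferon-gamma and chemokines. The transcription factors Eomes and T-bet (Tbx21) direct their maturation, and interleukin-15, read through a receptor containing Il2rb, keeps them alive.

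NK cells made up more of the marrow cells on day 2 and fewer on day 7 than in naive marrow. They numbered 74 of 7104 kept cells in the naive library (1.04%, 0.819 to 1.31%), 92 of 6126 at D2 CTX (1.5%, 1.21 to 1.84%) and 29 of 8290 at D7 CTX (0.350%, 0.234 to 0.502%). The share was 1.44-fold higher at D2 CTX than in naive marrow, a log2 ratio of 0.53 (0.07 to 0.99), and 2.98-fold lower at D7 CTX, a log2 ratio of -1.57 (-2.25 to -0.94). The interval at D2 CTX reached below 0 when at least 3 UMIs of the 3 genes were asked for (-0.036 to 0.93). Shares say nothing of the number of NK cells in a marrow. In the same libraries T cells (at least 2 UMIs of Cd3e and Cd3g, none of the rule genes or Cd79a) were 1.77%, 4.03% and 0.181% of kept cells, and B lineage cells (Cd79a, none of the other rule genes) were 27.5%, 26.8% and 2.45%. From naive to D7 CTX the log2 ratio of the share was -3.29 (-4.17 to -2.52) for T cells and -3.49 (-3.71 to -3.28) for B cells, both below the interval for NK cells. The cells taken as T cells carried more RNA of other classes than the NK cells did, with 54521, 43852 and 144535 CPM (UMIs per 1000000 UMIs of the summed cells) of 14 neutrophil genes against 20440, 23004 and 16861 CPM, and with 27395 CPM of erythroid genes in the naive library. NK cells formed a larger part of the cells in these 3 lymphocyte classes at D7 CTX. They were 3.43% (2.70 to 4.29%) of 2156 such cells in naive marrow, 4.65% (3.77 to 5.67%) of 1978 at D2 CTX and 11.7% (8.01 to 16.4%) of 247 at D7 CTX.

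**Figure D1:**
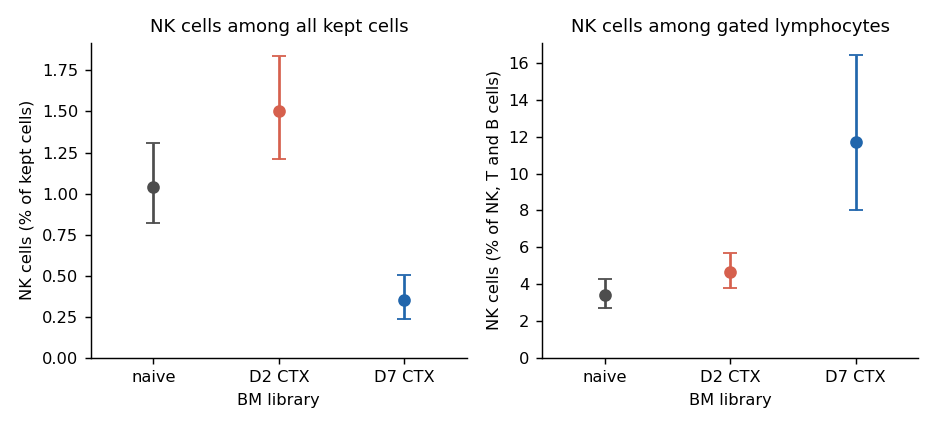
NK cells as a percentage of kept cells and of gated NK, T and B cells in the naive, D2 CTX and D7 CTX whole BM libraries. Points are the share in 1 pooled library and error bars its exact 95% interval. The share of kept cells was lowest at D7 CTX (0.350%), whereas the share of the 3 lymphocyte classes was highest there (11.7%).

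At D7 CTX the cells near the threshold of the rule were many beside the number of members. Just inside it, 5 naive, 11 D2 CTX and 2 D7 CTX members had exactly 2 UMIs of the 3 genes, and just outside it 8, 17 and 13 cells had 1 UMI and met the other limits. All 3 genes were detected in 35, 29 and 16 members, and a single gene in 13, 16 and 3. The Cd3 limit removed 26, 37 and 5 cells, of which 10, 11 and 4 went over it only through Cd3d, and the Cd79a limit removed 4, 6 and 0. Barcodes shared between pairs of these libraries numbered 6 to 16, and none of them was a member. Scrublet, a doublet caller, marked 7, 7 and 2 members, which were kept.

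The members were sequenced to unequal depth, and this bears on every count of detected genes. The median member had 4600 UMIs in the naive library (1180 to 31434), 3065 at D2 CTX (888 to 50873) and 18320 at D7 CTX (2348 to 48891). The summed members held 563169, 432005 and 588059 UMIs. When each cell was first thinned to 1000 UMIs, the rule found 40 naive, 56 D2 CTX and 7 D7 CTX cells, and the share was again lowest at D7 CTX, at 0.0852% of the cells with that depth.

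The label was checked against genes that the rule did not use. Levels are given in CPM, always naive first, then D2 CTX, then D7 CTX. Gzma, the granzyme A protease, stood at 5132, 3708 and 4462 CPM in NK cells against 12.4, 13.4 and 7.05 CPM in all non-NK kept cells. Nkg7, a granule membrane protein of cytotoxic cells, stood at 1808, 1711 and 1636 CPM against 85.2, 93.8 and 110 CPM. Prf1, which encodes perforin, was at 321, 433 and 332 CPM in NK cells and at 26.4, 24.6 and 21.1 CPM in T cells. Il2rb was at 662, 898 and 474 CPM, Klrd1, the partner chain of the NKG2 receptors, at 735, 528 and 493 CPM, and Klrk1, which encodes NKG2D, at 401, 565 and 274 CPM. Eomes was at 327, 287 and 177 CPM and Tbx21 at 88.8, 60.2 and 69.7 CPM. Gzma was 415-fold, 277-fold and 633-fold higher in NK cells than in all non-NK kept cells, and Eomes 240-fold, 106-fold and 595-fold. Of 22 NK markers, 19, 20 and 19 were at least 2 times higher in NK cells than in T cells. With T cells taken by Cd3d as well and cells thinned to 1000 UMIs, 20, 20 and 15 were. The marker Car2 went the other way in naive marrow. It was at 636 CPM in non-NK cells, whereas all 8 erythroid genes, Car2 among them, summed to 421 CPM in NK cells.

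Some T cell genes were absent from the members and others were not. The 16 T cell markers summed to 856, 882 and 753 CPM in NK cells against 6130, 5060 and 4413 CPM in T cells. Cd3e, Cd4, Cd8a, Cd8b1 and Cd5 had no UMI in any member of any library, of which Cd3e was limited by the rule and the others were not. Trac, the constant segment of the T cell receptor alpha chain, had 0, 3 and 7 UMIs. Constant segments of the beta chain made up most of the rest, with Trbc1 at 357, 405 and 388 CPM and Trbc2 at 261, 167 and 241 CPM, and unrearranged constant segments of the beta chain are known to be transcribed in NK cells.

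A minority of members carried many UMIs of genes of another class of cell. By limits set after the values were seen, 10 naive, 12 D2 CTX and 7 D7 CTX members did so. At least 5% of UMIs came from 14 neutrophil genes in 6, 6 and 2 of them, and the highest such share was 45.2%, 39.98% and 10.4%, while the median over all members was 0.241%, 0.490% and 0.166%. Il7r, Tmem176a and Tmem176b, which mark helper-like innate lymphoid cells, summed to at least 5 UMIs in 4, 4 and 5 members. Of these Il7r-type members, 3, 3 and 4 had no UMI of Eomes, Gzma or Prf1, so the label NK cell went against their transcripts. At D2 CTX 1 member held 95 UMIs of plasmacytoid dendritic cell genes, 1 held 23 of basophil and mast cell genes, 1 held 39 of MHC class II genes and 1 held 1299 of hemoglobin genes, and at D7 CTX 1 held 134 of MHC class II genes. Without these members 64, 80 and 22 cells remained, and values for these are given beside several of the results below. Levels are UMI sums, and at D2 CTX the members left out held a larger part of the summed UMIs than of the cells. The 3 rule genes summed to 1280, 1354 and 901 CPM with them and to 1397, 1705 and 885 CPM without. The remaining cells were not free of such RNA. The remaining cells still differed in neutrophil RNA, with the 14 genes at 1613, 6297 and 1371 CPM, a log2 ratio to naive of 1.96 (1.84 to 2.09) at D2 CTX. The part of this RNA in the results below was not tested.

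**Figure D2:**
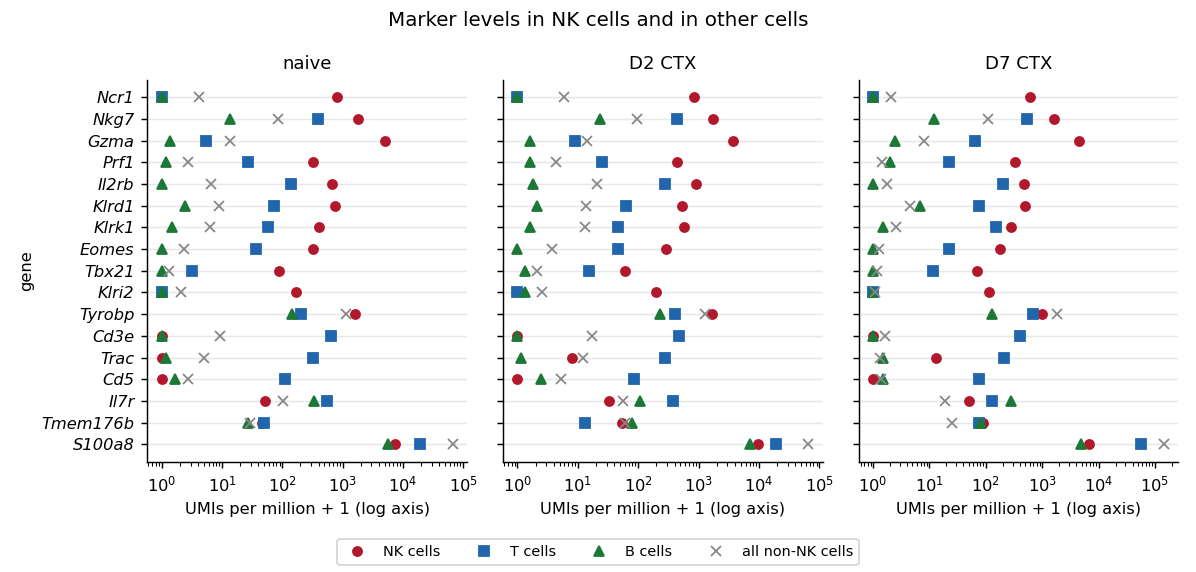
CPM plus 1 (log axis) of 17 genes in NK cells, T cells, B cells and all non-NK kept cells, 1 panel per whole BM library; each point is the summed level in 1 library. Gzma in NK cells sits far to the right of the other classes in each panel, at 5132, 3708 and 4462 CPM.

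Promoter sequences are shown for 3 genes that the results turn on: the receptor gene that gave most of the rule's UMIs, and the granzyme genes whose levels parted after CTX. They come from RefSeq on GRCm38.p6, which held promoters for 28 of the 32 genes looked up, and run from 250 bases before to 50 after the start of transcription. Capitals mark the Runx motif TGTGGT and the AP-1 motif TGANTCA, each searched on both strands, where N is any base. Ncr1 lies at chr7:4337465-4337764 on the plus strand, Gzma at chr13:113100932-113101231 on the minus strand and Gzmb at chr14:56262285-56262584 on the minus strand.
Ncr1: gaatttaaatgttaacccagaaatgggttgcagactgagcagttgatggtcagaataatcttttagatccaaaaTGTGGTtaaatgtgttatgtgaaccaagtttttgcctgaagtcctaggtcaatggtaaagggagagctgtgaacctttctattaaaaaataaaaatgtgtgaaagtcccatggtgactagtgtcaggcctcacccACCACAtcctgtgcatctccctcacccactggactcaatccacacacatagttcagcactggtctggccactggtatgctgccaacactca
Gzma: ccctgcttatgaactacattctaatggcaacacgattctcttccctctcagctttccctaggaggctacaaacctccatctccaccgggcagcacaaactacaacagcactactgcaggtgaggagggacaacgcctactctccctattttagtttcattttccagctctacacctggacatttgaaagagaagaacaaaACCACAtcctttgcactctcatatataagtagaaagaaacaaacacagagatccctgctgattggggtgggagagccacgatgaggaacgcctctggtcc
Gzmb: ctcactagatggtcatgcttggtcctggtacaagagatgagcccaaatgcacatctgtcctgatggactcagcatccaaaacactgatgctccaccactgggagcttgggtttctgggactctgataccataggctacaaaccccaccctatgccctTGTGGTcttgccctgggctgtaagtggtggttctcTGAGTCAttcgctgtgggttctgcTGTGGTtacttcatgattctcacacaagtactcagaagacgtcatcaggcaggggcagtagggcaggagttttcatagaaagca

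The Runx motif began at positions -176 and -41 from the start in Ncr1, at -50 in Gzma and at -93 and -34 in Gzmb, and the AP-1 motif began at -58 in Gzmb alone of these 3. Over all 32851 promoters of the same length, 16.8% held the Runx motif and 7.81% the AP-1 motif. A match of letters is a description and does not show that a factor binds there.

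Genes were compared between libraries where they had at least 40 UMIs over both and at least 100 CPM in at least 1. The difference is the log2 ratio of levels after 10 CPM was added to each, and a gene was called higher or lower at 1 log2 unit or more. Between D2 CTX and naive members 88 of 1845 genes were higher (4.77%) and 36 lower (1.95%). Between D7 CTX and naive members 18 of 1746 were higher (1.03%) and 49 lower (2.81%), and between D7 CTX and D2 CTX 172 of 1976 were higher (8.7%) and 287 lower (14.5%). These shares over all genes are the background for the counts of list members given below. The median difference over all genes compared was -0.01 at D2 CTX and 0.07 at D7 CTX against naive. The naive members are shared by the first pair of comparisons. Without the members rich in other cells' genes the counts were 152 higher (7.79%) and 61 lower (3.12%) of 1952 at D2 CTX, and 23 higher (1.31%) and 52 lower (2.96%) of 1759 at D7 CTX.

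The chemokine genes that NK cells secrete stood far lower at D7 CTX. Ccl5, which recruits T cells and monocytes, was at 4237 CPM in naive NK cells (2386 UMIs), 4368 CPM at D2 CTX (1887 UMIs) and 563 CPM at D7 CTX (331 UMIs). The summed Ccl5 level was thus nearly the same in naive and D2 CTX members, though lower at D2 CTX within each cycle class given below, and D7 CTX members stood 7.53-fold below naive, a log2 ratio of the levels of -2.91 (-3.08 to -2.75). Ccl4 was at 714, 1002 and 98.6 CPM and Ccl3 at 447, 336 and 129 CPM. Both encode macrophage inflammatory proteins, and their log2 differences from naive at D7 CTX were -2.74 and -1.72. Xcl1, which attracts cross-presenting dendritic cells, was at 328, 292 and 138 CPM (-1.20 at D7 CTX), and Ifng, the interferon-gamma gene, at 51.5, 57.9 and 23.8 CPM, which was below the level needed for a comparison.

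Over the list of 16 cytokine and chemokine genes, 6 could be compared at D7 CTX against naive, of which 4 were lower and 0 higher, with a median of -1.46. The summed list was at 6472, 6988 and 1396 CPM, which gave -2.21 (-2.32 to -2.10), or -2.42 without the members rich in other cells' genes. Ccl5 was lowest at D7 CTX among cycling and among non-cycling members alike (the split is defined further on), at 1711, 950 and 392 CPM in cycle-high members and 10445, 6959 and 2756 CPM in cycle-low members. Xcl1 did not: in cycle-low members it was 172, 309 and 283 CPM. Ccl5 was also lower in T cells of the D7 CTX library, at 1714, 926 and 284 CPM, over 15 T cells at D7 CTX. Detection of Ccl5 at a fixed 1000 UMIs per cell was 71.6%, 87.9% and 31.0% of NK cells, against at most 0.103% of B cells in any of the 3 libraries.

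Gzmb, which encodes granzyme B, moved the other way. It was at 99.4 CPM in naive NK cells (56 UMIs), 282 CPM at D2 CTX (122 UMIs) and 622 CPM at D7 CTX (366 UMIs). The D2 CTX level was 2.84-fold and the D7 CTX level 6.26-fold that of naive, log2 ratios of 1.51 (1.04 to 1.99) and 2.65 (2.24 to 3.08). A Gzmb UMI was found in 26 of 74, 40 of 92 and 16 of 29 members. At D7 CTX 1 member held 138 Gzmb UMIs, 37.7% of the total. At a fixed 1000 UMIs per cell Gzmb was detected in 13.5% (6.68 to 23.5%), 23.1% (14.9 to 33.1%) and 27.6% (12.7 to 47.2%) of NK cells. These intervals overlapped. With the member holding the most Gzmb UMIs left out of each library the log2 difference at D7 CTX, 2.53 over all members after 10 CPM was added, was 2.06, and with members rich in other cells' genes left out it was 2.10. The mean of the members' own CPM, in which each cell counts alike, gave 1.67. In cycle-high members Gzmb was at 89.9, 145 and 641 CPM and in cycle-low members at 123, 387 and 377 CPM. T cells held 0, 11.2 and 390 CPM of Gzmb, and at 1000 UMIs per cell it was detected at D7 CTX in 6.67% of 15 T cells, that is in 1 cell.

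In the summed members the other granule genes compared were within 1 log2 unit of naive at D7 CTX. Of 20 cytotoxic granule genes 10 could be compared at D7 CTX against naive, of which 1, Gzmb, was higher and none lower, and the summed list was at 9289, 8062 and 8770 CPM. Gzma was 1.15-fold lower at D7 CTX than naive, a log2 ratio of -0.20 (-0.28 to -0.12), and Prf1 was 1.03-fold higher, a log2 ratio of 0.05 (-0.25 to 0.34). Split by cycle, Gzma was at 4402, 1713 and 4571 CPM in cycle-high members and at 6926, 5221 and 3062 CPM in cycle-low members. It thus stood more than 1 log2 unit below naive among cycle-high members at D2 CTX (-1.36) and among the 8 cycle-low members at D7 CTX (-1.17). Without members rich in other cells' genes these differences were -0.65 and -0.83. Serpinb9, which shields cytotoxic cells from their own granzyme B, was at 190, 264 and 272 CPM, under 1 log2 unit from naive at both days. At D2 CTX 2 of 11 were higher and none lower: Gzmb, and Fasl, the ligand that triggers Fas on targets, at 40.8, 109 and 18.7 CPM. Without members rich in other cells' genes Cst7, which encodes cystatin F, an inhibitor of granule proteases, was also higher, at 47.1, 108 and 51.9 CPM (1.04).

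**Figure D3:**
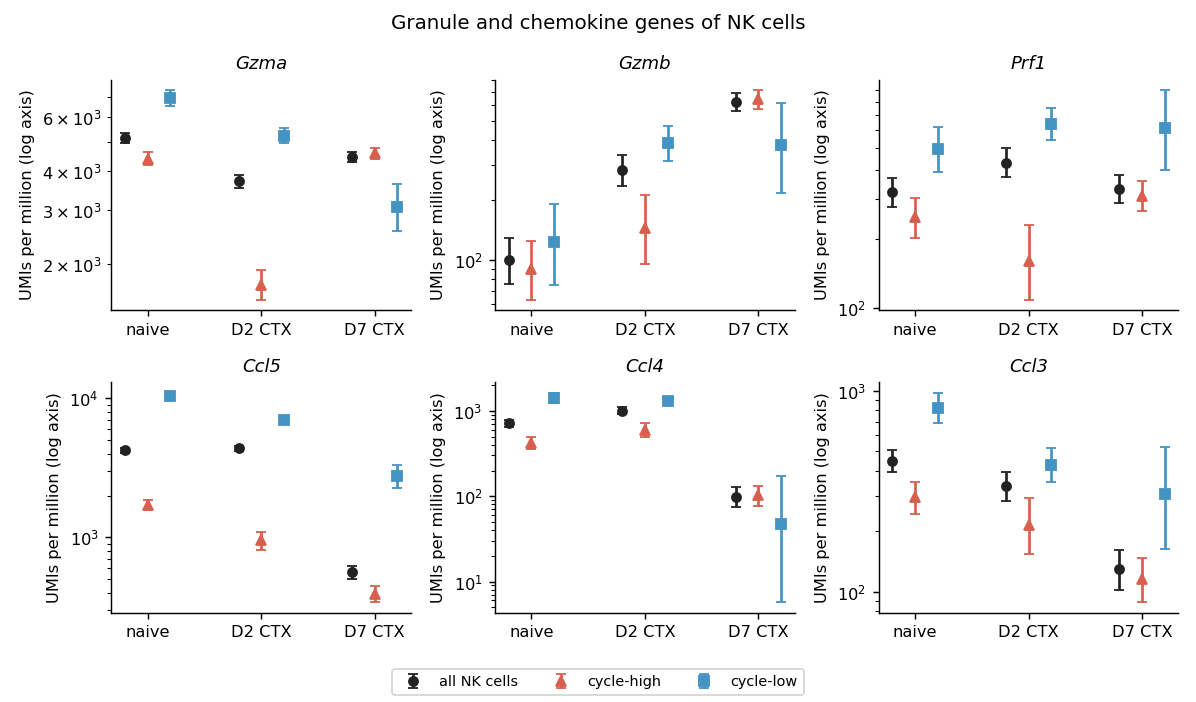
CPM (log axis) of Gzma, Gzmb, Prf1, Ccl5, Ccl4 and Ccl3 in all NK cells, in cycle-high and in cycle-low NK cells of the 3 whole BM libraries; points are summed levels in 1 library and error bars exact 95% Poisson intervals. Ccl5 went from 4237 to 563 CPM and Gzmb from 99.4 to 622 CPM between naive and D7 CTX, while Prf1 was at 321 and 332 CPM.

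Few receptors of target recognition were abundant enough to compare. Of 34 killer lectin-like and other NK receptor genes 9 could be compared with naive at D7 CTX, of which 1 was higher and 1 lower, with a median of -0.57, and the summed list was at 2987, 3143 and 2092 CPM. The higher gene was Cd160, a receptor for classical and non-classical MHC class I, at 44.4, 41.7 and 121 CPM (1.27), detected in 13 of 74, 11 of 92 and 19 of 29 members. At a fixed 1000 UMIs per cell it was detected in 2 of 74, 0 of 91 and 2 of 29, and the intervals of these shares overlapped. The lower gene was Klra3, a Ly49 receptor for MHC class I, at 321, 345 and 128 CPM (-1.27). Without members rich in other cells' genes Klrc1 (128.5, 124 and 51.9 CPM, -1.16) and Klrc2 (118, 186 and 43.3 CPM, -1.26), chains of the NKG2 receptors, were lower as well. Ly49 values are uncertain, since these genes are near-identical copies that differ between BALB/c and the reference strain. At D2 CTX none of the 9 receptor genes compared was 1 log2 unit from naive. Of 19 receptor signalling adaptors 8 were compared at D7 CTX: Hcst, which encodes the NKG2D adaptor DAP10, was lower at 460, 405 and 196 CPM (-1.19), and Tyrobp, which encodes DAP12, was at 1619, 1690 and 1002 CPM (-0.69).

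Genes that let NK cells answer cytokines were in part lower at D7 CTX. Among 6 cytokine receptor and signalling genes compared, Il18rap, a chain of the interleukin-18 receptor, was lower at 259, 359 and 79.9 CPM (-1.58), as was Jak1, the kinase of many cytokine receptors, at 561, 574 and 247 CPM (-1.15). Il18r1, the partner chain of Il18rap, stood at 265, 153 and 141 CPM (-0.86). Itga2, which encodes the DX5 antigen, a homing gene, stood at 128, 144 and 57.8 CPM (-1.02), just past 1 log2 unit. Cxcr4, the receptor that holds cells in the marrow, fell short of the level for a comparison at 72.8, 94.9 and 22.1 CPM. At D2 CTX none of the 8 cytokine receptor genes compared was 1 log2 unit from naive over all members, but without members rich in other cells' genes Stat4, a signal transducer of interleukin-12, was higher at 85.7, 238 and 45.4 CPM (1.38).

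Of 32 transcription factors of the NK lineage, 12 could be compared at D7 CTX and 16 at D2 CTX. At D7 CTX 2 of the 12 were lower and none higher: Zeb2, which acts in terminal maturation, at 154, 250 and 40.8 CPM (-1.69), and Ets1, needed for NK development, at 375, 287 and 180 CPM (-1.02). Zeb2 was abundant in other cells, with a UMI at 1000 UMIs in 39.0%, 40.1% and 31.5% of B cells. Naive B cells held 449 CPM of Zeb2, above the level in NK cells. Over the alternative settings its difference at D7 CTX ranged from -2.45 to 0, so the call was not kept under all of them. Eomes was -0.85 and Tbx21, at 50, 26 and 41 UMIs, was too low to compare. At D2 CTX 3 of the 16 were higher: Irf8, which supports NK survival and response, at 270, 588 and 284 CPM (1.10), Myb, at 51.5, 157 and 57.8 CPM, and Runx2, at 39.1, 123 and 11.9 CPM. Leaving out the members rich in other cells' genes gave 0.95 for Irf8, 0.68 for Myb and 0.63 for Runx2, so that none of these 3 then reached 1 log2 unit, while Bhlhe40, a repressor induced on activation, did (144, 359 and 77.9 CPM, 1.27).

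Maturation genes moved differently from one another at D7 CTX. Of 22 genes of mature NK cells 13 were compared, of which Gzmb was higher and Ccl5 and Zeb2 were lower. The list summed to 15589, 13937 and 12222 CPM, and Ccl5 alone fell by more between naive and D7 CTX than the sum did. The log2 ratio of the sum at D7 CTX was -0.35 (-0.40 to -0.31) over all members, 0.04 (-0.02 to 0.09) in cycle-high and -1.15 (-1.29 to -1.01) in cycle-low members. Of the 8 cycle-low members at D7 CTX, 4 were rich in other cells' genes. Without such members the cycle-low sum was at 27154 CPM in naive and 15540 CPM at D7 CTX, against 24395 and 11001 CPM with them. Of 20 genes of immature NK cells 10 were compared, of which Cd160 was higher and Xcl1 lower. Their sum gave -0.26 (-0.36 to -0.16) over all members, -0.24 in cycle-high and 0.65 (0.44 to 0.85) in cycle-low members, and 0.17 in cycle-low members without those rich in other cells' genes. Cd27, which marks less mature NK cells, was at 110, 97.2 and 52.7 CPM, and Klrg1, which marks the most mature, had 14, 13 and 29 UMIs, 15 of the last in 1 member.

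NK cells differed between libraries in how many were in cell cycle. A member was called cycle-high when at least 20 of 10000 UMIs came from 36 S and G2/M phase genes, a limit set after the values were seen. This held for 28 of 74 naive members (37.8%, 26.8 to 49.9%), 13 of 92 at D2 CTX (14.1%, 7.74 to 22.95%) and 21 of 29 at D7 CTX (72.4%, 52.8 to 87.3%). Against naive, the share of cycle-high members had a log2 ratio of -1.42 (-2.49 to -0.42) on day 2 and of 0.94 (0.05 to 1.80) on day 7. Between 15 and 25 such UMIs per 10000 lay 7, 4 and 0 members. Without the members rich in other cells' genes the shares were 37.5%, 11.2% and 81.8%. With every cell thinned to 1000 UMIs, 36.5%, 15.4% and 69.0% had at least 3 cycle UMIs.

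T cells of the same libraries were cycle-high in 7.94%, 2.43% and 33.3% and B cells in 31.2%, 3.29% and 54.2%, so all 3 classes had their lowest share at D2 CTX and their highest at D7 CTX. Cycle-high NK cells were also the deeper cells, with medians of 13848, 13300 and 23492 UMIs against 2716, 2703 and 4327.5 in cycle-low ones, and they gave 71.1%, 43.1% and 92.8% of the members' UMIs. The summed levels of NK cells therefore weigh cycling cells unequally between libraries. At D2 CTX 4 of the 13 cycle-high members were rich in other cells' genes. Without such members the 3 rule genes stood at 842 CPM in the D2 CTX cycle-high cells, against 574 CPM with them.

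Over all members, single cycle genes were likewise lowest at D2 CTX. Mki67, a marker of cycling cells, was at 604, 266 and 553 CPM (-1.15 at D2 CTX), and had a UMI in 28, 12 and 20 members. Hist1h1b, a linker histone made in S phase, was at 593, 92.6 and 481 CPM (-2.56 at D2 CTX), and the differences at D2 CTX were -2.05 for Hist1h3c, -1.87 for Hist1h4d, -1.72 for Tuba1c, a tubulin, and -1.60 for H2afx, a histone. Some of these directions turned under other settings. At D7 CTX over D2 CTX Mki67 was -0.026 in cycle-high and -0.86 in cycle-low members. With the B cell level subtracted, Mki67 (4.39), Hist1h1b (2.69) and H2afx (3.44) were higher at D2 CTX than naive. B cells held 4611, 579 and 4289 CPM of the 18 G2/M genes. That setting thus took off B cells' own cycle RNA, far more of it in the naive than in the D2 CTX library. It cannot decide the direction of cycle genes. In cycle-low members Hist1h4d was 0.46 and Tuba1c 0.089. Over all members the 18 G2/M genes summed to 3486, 1998 and 4040 CPM and the 18 S phase genes to 2140, 1600 and 2794 CPM.

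**Figure D4:**
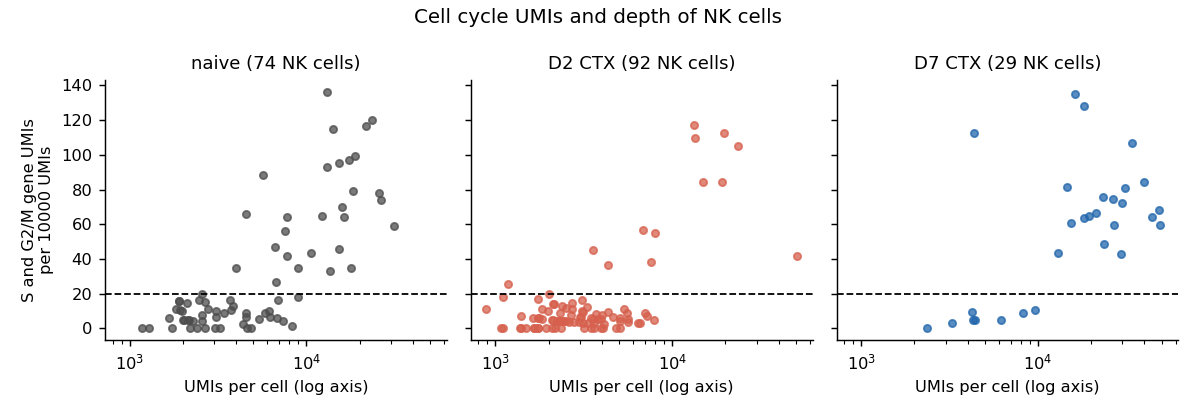
UMIs of 36 S and G2/M genes per 10000 UMIs (y axis) against UMIs per cell (x axis, log) for each NK cell of the naive, D2 CTX and D7 CTX libraries; each point is 1 member and the dashed line is the limit of 20 per 10000. Above the line lie 28 of 74, 13 of 92 and 21 of 29 members.

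At D2 CTX the NK cells held more transcripts of p53 target genes, which are switched on after DNA damage. Of 20 listed, 5 could be compared and 4 were higher than naive, none lower, with a median of 1.61, and the summed list was at 666, 1898 and 588 CPM. The log2 ratio of the sum was 1.51 (1.33 to 1.69) at D2 CTX, 1.54 without members rich in other cells' genes, 1.87 (1.62 to 2.12) in cycle-high and 0.90 (0.64 to 1.16) in cycle-low members, and -0.18 (-0.39 to 0.04) at D7 CTX. Ccng1, cyclin G1, was at 33.7, 271 and 34.0 CPM (19, 117 and 20 UMIs), and Cdkn1a, the p21 inhibitor of the cell cycle, at 17.8, 139 and 11.9 CPM (10, 60 and 7 UMIs). Both genes were thus high at D2 CTX, and their naive and D7 CTX intervals overlapped. Their log2 ratios to naive at D2 CTX were 3.0 (2.30 to 3.79) and 2.97 (1.99 to 4.10). At 1000 UMIs per cell Ccng1 was detected in 4.05% (0.844 to 11.4%) of naive and 19.8% (12.2 to 29.4%) of D2 CTX members. Those intervals did not overlap. Cdkn1a was detected in 2.70% (0.329 to 9.42%) and 8.79% (3.87 to 16.6%), and its intervals overlapped. A single member held 30.0% of the D2 CTX UMIs of Cdkn1a. The Cdkn1a difference, taken after 10 CPM was added, was 2.42 over all members and 2.37 without those rich in other cells' genes.

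Bax, a pore-forming pro-apoptotic protein, was at 133, 426 and 151 CPM (1.61 at D2 CTX), and Trp53inp1 at 33.7, 106 and 10.2 CPM (1.41). The fifth gene compared, Btg2, was at 289, 479 and 214 CPM (0.71). Phlda3, another p53 target, had 2, 21 and 3 UMIs, too few to compare. The same genes were higher at D2 CTX outside the NK cells too. In all non-NK kept cells Ccng1 was at 29.1, 208 and 20.3 CPM, Cdkn1a at 14.8, 159 and 12.8 CPM and Bax at 81.9, 223 and 50.7 CPM, and T cells held 61.6, 168 and 63.2 CPM of Ccng1.

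In the summed members, genes of the BCL2 family, which decide between survival and apoptosis, were also higher at D2 CTX. Of 17 genes 4 could be compared at D2 CTX and 3 were higher, none lower, with a summed log2 ratio of 1.04 (0.87 to 1.21): Bax, Bcl2, which protects lymphocytes from apoptosis, at 224, 581 and 170 CPM, and Bcl2l11, which encodes the pro-apoptotic Bim, at 69.3, 181 and 28.9 CPM. Mcl1, the survival protein NK cells depend on, was at 217, 234 and 180 CPM. The Bcl2 difference was 1.34 over all members but 0.89 within cycle-high and 0.90 within cycle-low members, so it passed 1 log2 unit in neither alone. The Bcl2l11 difference was 0.71 in cycle-low members and rested on too few UMIs to compare in cycle-high ones, while Bax gave 1.24 and 2.0. The summed log2 ratio was 1.02 (0.77 to 1.27) in cycle-high and 0.70 (0.46 to 0.95) in cycle-low members. T cells were at 282, 1236 and 126 CPM of Bcl2 in the same libraries.

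**Figure D5:**
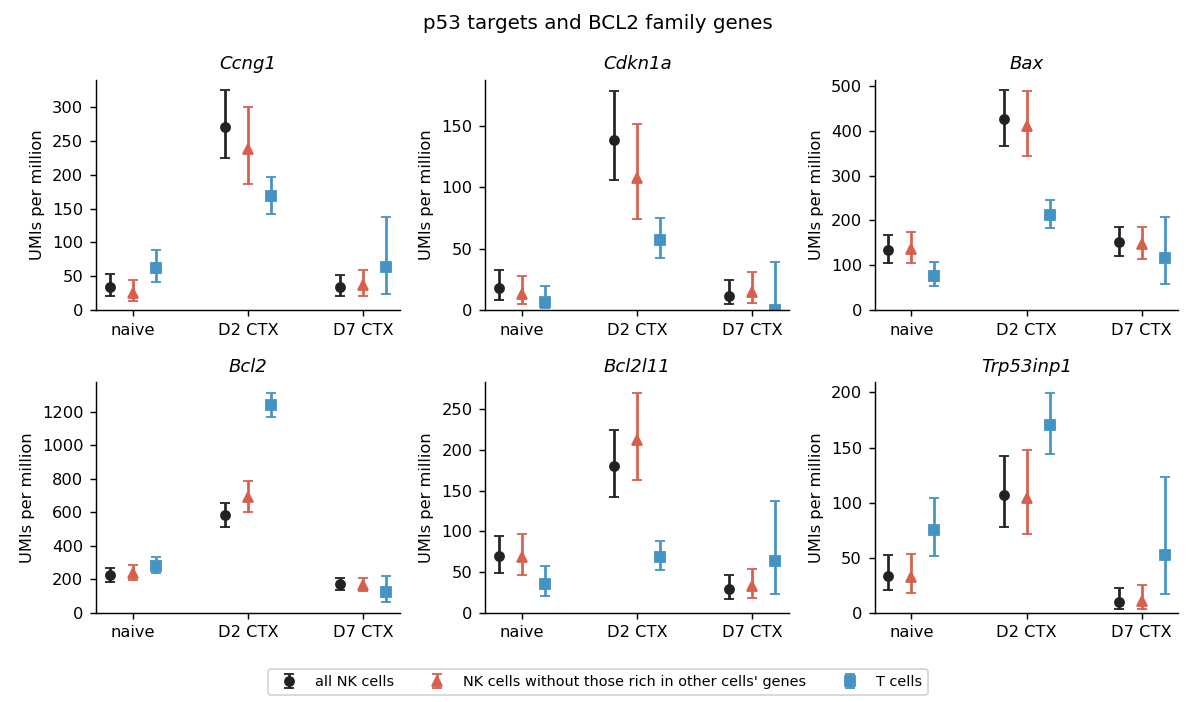
CPM (linear axis from 0) of Ccng1, Cdkn1a, Bax, Bcl2, Bcl2l11 and Trp53inp1 in the 3 whole BM libraries. Shown are NK cells, NK cells without those rich in other cells' genes and T cells. Points are summed levels in 1 library and error bars exact 95% Poisson intervals. In NK cells all 6 genes were highest at D2 CTX, where Ccng1 reached 271 CPM against 33.7 and 34.0 CPM.

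Genes at least 2 times as high in NK cells as in the other kept cells of either library compared numbered 319. Of these 31 were higher and 5 lower at D2 CTX than naive, against 88 and 36 of all 1845 genes compared (4.77% and 1.95%). Of the 319, 245 met the limit in the D2 CTX library, 281 in the naive library and 207 in both. A gene high at D2 CTX could thus enter through that library alone. Exoc4, a subunit of the exocyst that tethers secretory vesicles, was at 39.1, 229 and 34.0 CPM (2.29), and Sytl3, a synaptotagmin-like protein that binds Rab27 on vesicles, at 58.6, 268 and 90.1 CPM (2.02). Exoc4 was also higher in T cells (46.2, 147 and 52.7 CPM), B cells and all non-NK cells, whereas Sytl3 was at 15.4, 23.5 and 31.6 CPM in T cells. Tnfaip3, which restrains NF-kB, was at 35.5, 125 and 30.6 CPM (1.57), Nabp1, a single-stranded DNA-binding protein, at 130, 373 and 25.5 CPM (1.45), and Gimap3 at 97.7, 264 and 56.1 CPM (1.35). Over the alternative settings the lowest difference was 0.16 for Gimap3, 0.72 for Tnfaip3 and 0.998 for Nabp1, each under 1 log2 unit. It was 1.65 for Exoc4 and 1.35 for Sytl3. Nabp1 was among the genes furthest below naive at D7 CTX as well (-1.98).

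At D7 CTX 15 of 1094 genes chosen the same way were higher than naive and 29 lower. Over all 1746 genes compared 18 were higher (1.03%) and 49 lower (2.81%). Of the 1094, 1056 met the limit in the D7 CTX library and 242 in the naive library, so most met it at D7 CTX alone, where 14 neutrophil genes made up 385499 CPM of the other kept cells (179797 CPM in naive marrow). Nolc1, Nop56 and Hspd1 were among the genes that met it only there. After Gzmb the highest was Scd2, a fatty acid desaturase, at 44.4, 90.3 and 144 CPM (1.51). It was followed by Nolc1, a nucleolar protein of ribosome assembly, at 85.2, 81.0 and 235 CPM (1.36), Ppa1, an inorganic pyrophosphatase, at 58.6, 64.8 and 162 CPM (1.32), Fabp5, a fatty acid-binding protein, at 83.5, 48.6 and 219 CPM (1.30), and Cd160. Fabp5 had only 2, 3 and 0 UMIs in cycle-low members, where its difference was -1.16. Next came Nop56, which guides ribosomal RNA methylation, at 112, 137 and 270 CPM (1.20), and Hspd1, the mitochondrial chaperonin, at 270, 266 and 626 CPM (1.18). Over the alternative settings the Nop56 difference ranged from 0.43 to 3.09. The lowest value was 0.93 for Hspd1, 0.96 for Ppa1, 0.98 for Nolc1 and 1.04 for Scd2. Among the lowest besides the chemokines were Cd244, the receptor 2B4, at 115, 174 and 34.0 CPM (-1.51), Mxd4, a MYC antagonist, at 131, 137 and 28.9 CPM (-1.86), and Satb1, a chromatin organiser of lymphocytes, at 215, 428 and 78.2 CPM (-1.35). Gzmb and Cd160 were in the lists drawn up, and Cd244 was in a list of NK markers only under the symbol Cd244a, which these data do not use. The rest of these genes were in none of the lists, and no theme was tested.

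Few of the interferon and activation genes compared reached 1 log2 unit. Over all genes compared with naive, 4.77% were higher at D2 CTX and 2.81% lower at D7 CTX. Of 25 interferon-stimulated genes 4 were compared at D2 CTX, and Gbp4, a guanylate-binding protein, was higher at 47.9, 130 and 73.1 CPM (1.27), with a summed log2 ratio of 0.73 (0.55 to 0.91). Of immediate early genes 12 were compared at D2 CTX, of which Ier5 was higher (133, 282 and 83.3 CPM, 1.03), and 11 at D7 CTX, of which Junb, an AP-1 subunit, was lower (494, 887 and 204 CPM, -1.23). Without members rich in other cells' genes Junb was also higher at D2 CTX (1.12). No gene of the MHC class I list was 1 log2 unit from naive at either day over all members, but without those members Tapbp, which encodes tapasin, a chaperone of peptide loading, was higher at D2 CTX (83.5, 202.5 and 51.9 CPM, 1.18).

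Several large differences rested on 1 or a few members. Mpo (92.3, 574 and 39.1 CPM) and Cd63 (12.4, 118 and 3.40 CPM) were each 2.51 log2 units higher than naive at D2 CTX, and without the members rich in other cells' genes the differences were -2.26 and -0.64. Cd74, the MHC class II invariant chain, was higher at D7 CTX (3.55, 55.5 and 121 CPM, 3.27) and gave -0.28 without those members. Hemoglobin genes were higher at D2 CTX through the member with 1299 UMIs. Gm10076, a ribosomal protein-like pseudogene, was higher at D2 CTX at 90.6, 838 and 138 CPM, in all classes of cell alike, and its counts are uncertain because it shares sequence with its parent gene.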

How the data were processed

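The deposited matrices held UMI counts per gene and barcode, which the authors made from 10x 3' V3 libraries with Cell Ranger 3.1 on mm10, and the submitters' processing notes also name Seurat 5.0. No cell annotation was used. Counts were read with scipy 1.17.1 and pandas 2.3.3, cells were filtered and gated as described, and members were summed per library and scaled to UMIs per 1000000. The barcodes numbered 7649 (naive), 6608 (D2 CTX) and 8605 (D7 CTX), with 47086837, 34764874 and 68459527 UMIs, fewer barcodes than the cells the study states. With 1 library per condition no test was run and no p-value is given. Shares have Clopper-Pearson intervals, levels Poisson intervals and ratios conditional binomial intervals.

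Named genes were the 10 highest and 10 lowest genes of each comparison among those at least 2 times as high in NK cells as in other kept cells of either library, the 5 highest and 5 lowest of all genes, and the members of the gene lists. The members and lists were chosen with earlier results of these data known. Doublets were scored with Scrublet in scanpy 1.11.5. The procedure was tested on simulated data with Poisson counting error only, drawn from the pooled profile of the members. The planted changes were larger than 1 log2 unit and lay in genes above the limits of comparison. Of these, 196 of 200 were called the right way for D2 CTX over naive (1 of 1406 unchanged genes was called). The numbers were 199 of 200 for D7 CTX over naive and 200 of 200 for D7 CTX over D2 CTX. Differences between cells were not simulated, so these rates do not hold for calls that rest on a few members. The T cell rule first planned, which counted Cd3d, took in 1158, 963 and 3295 cells, whose summed neutrophil genes reached 451289, 327339 and 499070 CPM. T cells were therefore taken by Cd3e and Cd3g, which lowered this level and did not remove it. Some homing and retention genes are not reported here.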

Additional observations from a re-analysis of the deposited data

How the results depend on the processing

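The share of NK cells was higher at D2 CTX than naive under all 11 alternatives of gate, filter and depth, and lower at D7 CTX under 10 of them. The D2 CTX interval spanned 0 with at least 3 UMIs of the 3 genes (-0.036 to 0.93) and as a share of NK, T and B cells (-0.019 to 0.90). Thinning to 1000 UMIs moved the log2 ratio at D7 CTX to -2.78 against naive and -3.57 against D2 CTX. As a share of NK, T and B cells the D7 CTX ratios reversed, to 1.77 and 1.34.

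Counts of genes called moved most, given here as higher and lower. For D2 CTX over naive (88 and 36) they were 41 and 16 with 50 CPM added, 207 and 61 with a limit of 20 UMIs and 50 CPM, 40 and 15 with 100 UMIs and 200 CPM, and 152 and 61 without members rich in other cells' genes. The lower count was 55 with no Cd3 UMI allowed, 64 in cycle-high and 15 in cycle-low members. For D7 CTX over naive (18 and 49) they were 8 and 20 with 50 CPM, 52 and 103 with the lower limit, 7 and 24 with the higher limit, and 76 and 127 with the mean of the cells' CPM. The higher count was 29 with 1 CPM added, 29 without doublets, 37 with no Cd3 UMI and 89 with the B cell level subtracted, and the lower count was 27 in cycle-high members. For D7 CTX over D2 CTX (172 and 287) they were 79 and 145 with 50 CPM, 101 and 111 with the higher limit, 108 and 171 with the B cell level subtracted, and 100 and 121 in cycle-high members. The lower count was 597 with the lower limit, and the higher count 287 with the mean of cells and 72 in cycle-low members.

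Of the named genes at least 1 log2 unit apart, these changed sign. Genes under 1 log2 unit, such as Top2a (-0.53 at D2 CTX over naive, 5.01 with the B cell level subtracted), are not listed. At D2 CTX over naive, Mpo was -0.78 by the mean of cells, -1.99 in cycle-low members, -1.19 without its top member and -2.26 without members rich in other cells' genes, where Cd63 was -0.64. With the B cell level subtracted, H2afx was 3.44, Hist1h1b 2.69 and Mki67 4.39. That setting also took off the cycle RNA of B cells and cannot decide the direction of cycle genes. P2ry10 was -0.21 in cycle-high members, and Hist1h4d was 0.46, Itm2a 0.20 and Tuba1c 0.089 in cycle-low ones. At D7 CTX over naive, cycle-low members gave -2.23 for Chil3, -1.16 for Fabp5, 0.33 for Mpo, -0.66 for Stip1 and 0.69 for Xcl1, and Cd74 was -0.28 without members rich in other cells' genes. At D7 CTX over D2 CTX, Mki67 was -4.39 with the B cell level subtracted, -0.026 in cycle-high and -0.86 in cycle-low members, Ifng 0.18 in cycle-high and Gzmb -0.036 in cycle-low members. The causes were not tested.

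The alternatives on cycle-high, cycle-low and other-cell members, on the top member and on T cells by Cd3e and Cd3g were chosen after seeing the data. With 29 members at D7 CTX, 8 of them cycle-low, single cells weigh heavily there. No paired analysis was possible because each condition had 1 library.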

Other observations

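Cells that met the NK gene threshold but held at least 2 Cd3 UMIs numbered 26 naive, 37 D2 CTX and 5 D7 CTX and entered no comparison. Their summed level of Gzma was 1632, 1034 and 5510 CPM, and that of Cd3e was 184, 214 and 49.0 CPM. Trac was detected in 2, 13 and 0 of them.

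In the sorted monocyte libraries 1 of 2564 kept cells from CTX-treated mice (0.0390%, 0.000987 to 0.217%) and 0 of 1891 from naive mice, which at 3 counts allows a share of up to 0.159% (exact 95% limit 0.195%), met the NK rule.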
